A study of Mus musculus with 5 samples.

Results

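The genes described here are 10 hepatocyte genes whose products build, carry or remodel very low density lipoprotein (VLDL) and high density lipoprotein (HDL). They were taken by symbol from the unsmoothed expression table, where all 10 were found among 18018 genes: Apob, Mttp, Apoe, Apoc1, Apoc4, Apoa2, Apoh, Apom, Lcat and Lipc. The study profiled single mouse hepatocytes by Drop-seq, which captures each cell in a droplet with a barcoded bead and counts messenger RNA molecules from their 3′ ends by unique molecular identifiers (UMIs). The mice were male C57BL/6J littermates with no further genotype given, aged 8 weeks at the start and kept for 12 weeks on a regular chow diet (LFD, 2 mice) or on a high fat diet (HFD, 3 mice). The question the design puts is how hepatocyte expression differed between the diets, and position in the liver lobule could be followed within each mouse.

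Hepatocytes export triglyceride in VLDL, a particle that forms around one apolipoprotein B molecule as microsomal triglyceride transfer protein loads it with lipid. Smaller exchangeable apolipoproteins move between VLDL and HDL and set which receptors and lipases act on them. HDL cholesterol is esterified in plasma by LCAT, and hepatic lipase trims the lipids of remnants and HDL at the liver's vessel wall.

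The 454 cells held 1499094 UMIs, namely 446868 in 132 cells of LFD mouse 1, 309050 in 84 cells of LFD mouse 2, 27903 in 5 cells of HFD mouse 1, 656803 in 208 cells of HFD mouse 2 and 58470 in 25 cells of HFD mouse 3. Each library is taken as 1 mouse, and p-values measure only the spread between these libraries. All 12 hepatocyte markers had UMIs in each mouse, and together they made up 121215 to 149914 UMIs per 1000000 (CPM). HFD mouse 1 stood apart: its sinusoidal endothelial markers summed to 1075 CPM against 17.9 to 34.2 CPM in the other mice, with 2 of 10 markers seen. Its erythroid markers reached 502 CPM (HFD mouse 3: 291 CPM, the other mice 3.24 to 13.7 CPM), and 4 of its 5 barcodes held 3 or more UMIs of a list for another cell type. The part of these signals in the results was not tested, and the diet, side and share differences are also given without this mouse. No cell barcode was shared between mice.

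The promoter stretches of 3 of the genes are shown because Apob is the structural protein of VLDL and because Apoa2 and Apoc4 moved together most closely across cells. They are RefSeq sequences on build GRCm38.p6, written 5′ to 3′ on the gene's strand and ending where the annotated gene begins. Capitals mark letters matched on either strand by a search for 7 motifs. They were TATAAA, which binds the basal machinery; CCAAT, a proximal element; and GTTAAT, a half-site of HNF1. The others were AGGTCA, a half-site of nuclear receptors; CAAAGTCCA, a core of HNF4A sites; TTGCGCAA, a C/EBP palindrome; and CACGTG, the E-box. None of these motifs is contained in another.
Apob, chr12:7977427-7977647, plus strand: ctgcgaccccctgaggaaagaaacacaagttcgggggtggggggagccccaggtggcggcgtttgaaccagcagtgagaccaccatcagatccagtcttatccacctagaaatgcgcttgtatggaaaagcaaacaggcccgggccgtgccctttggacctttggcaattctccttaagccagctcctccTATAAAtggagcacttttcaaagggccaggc
Apoa2, chr1:171224804-171225053, plus strand: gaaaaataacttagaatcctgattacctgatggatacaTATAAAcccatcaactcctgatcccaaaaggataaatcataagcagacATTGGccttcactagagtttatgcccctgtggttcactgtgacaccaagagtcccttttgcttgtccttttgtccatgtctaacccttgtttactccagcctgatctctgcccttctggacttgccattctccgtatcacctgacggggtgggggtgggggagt
Apoc4, chr7:19681480-19681710, minus strand: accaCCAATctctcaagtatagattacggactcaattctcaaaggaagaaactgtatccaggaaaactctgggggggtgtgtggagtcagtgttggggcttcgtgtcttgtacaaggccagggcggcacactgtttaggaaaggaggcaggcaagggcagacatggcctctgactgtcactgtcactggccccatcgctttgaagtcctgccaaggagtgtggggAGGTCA
The Apob stretch carried TATAAA at 60 to 55 bases before the RefSeq start. The Apoa2 stretch carried TATAAA at 212 to 207 bases and CCAAT on the other strand at 164 to 160 bases before its start. The Apoc4 stretch carried CCAAT at 246 to 242 bases and AGGTCA at 25 to 20 bases before its start. Of 32851 promoter windows of 250 bases, 12.4% held TATAAA, 33.8% held CCAAT and 14.0% held AGGTCA, so these matches are common and describe letters only. The rarest motifs searched, CAAAGTCCA (0.384% of windows) and TTGCGCAA (0.164%), had no match in the windows of the 10 genes, of which all but Apoc1 had an entry.

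The 10 genes took up 9.47% and 8.97% of all UMIs in the LFD mice and 8.10%, 10.1% and 12.0% in HFD mice 1, 2 and 3. Most of that came from 3 small apolipoproteins. Apoa2 ranked between 1st and 5th of all genes in each mouse, Apoc1 between 4th and 8th and Apoe between 6th and 8th, while Mttp ranked between 867th and 1651st. Because a UMI stands for 1 molecule counted at its 3′ end, CPM values of different genes are set side by side without scaling to length. By mean CPM over 5 mice the order was Apoa2, Apoc1, Apoe, Apoc4, Apoh, Apom, Apob, Lcat, Lipc and Mttp. Neighbours in this order were not always separable: Apoc1 exceeded Apoe with intervals apart in 2 of 5 mice, Apom exceeded Apob so in 2 of 5, Lcat exceeded Lipc so in 2 of 5, and Lipc exceeded Mttp so in 1 of 5. Their products differ widely in size: Apob encodes 4505 amino acids, against 88 for Apoc1 and 102 for Apoa2.

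**Figure D1:**
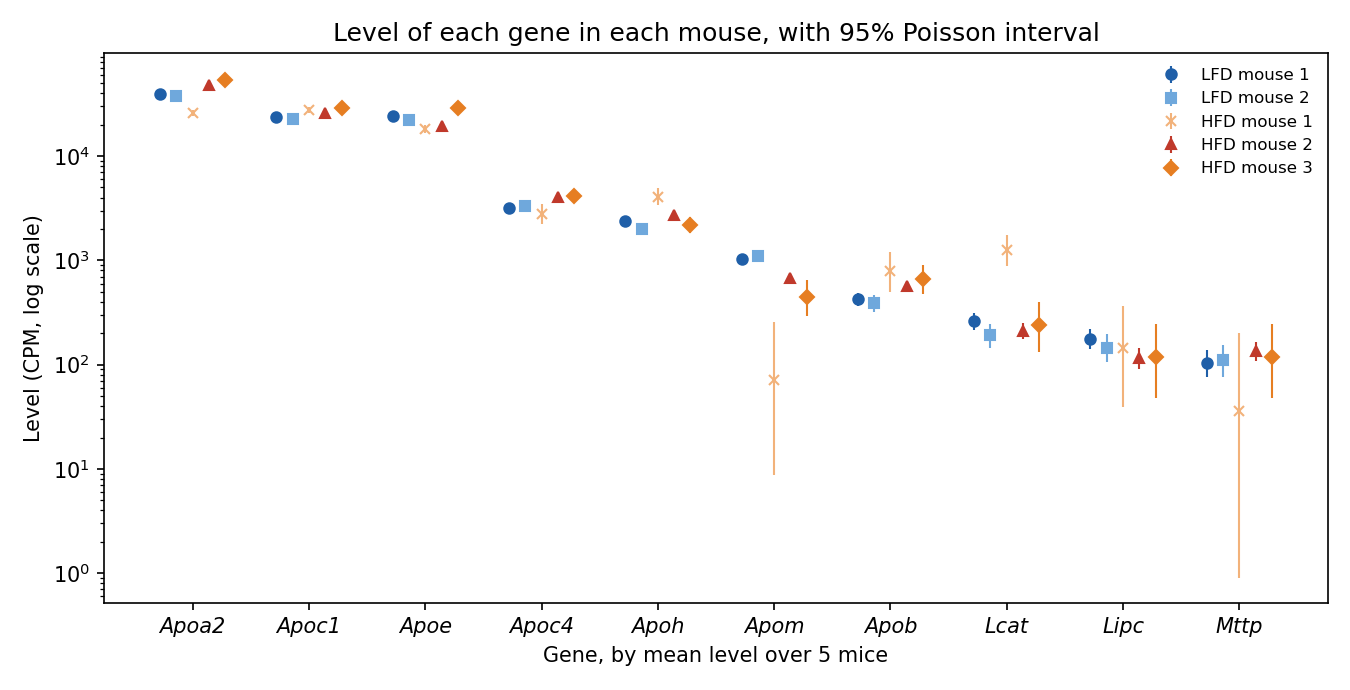
Level of each gene in CPM (log axis) in each of the 5 mice, with exact 95% Poisson intervals that cover counting error only. Apoa2, Apoc1 and Apoe sit at 18098 CPM or more in every mouse, and HFD mouse 1 lies apart from the other mice for Apom (71.7 CPM) and Lcat (1254 CPM).

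In the test of diet over 5 mice, none of the 10 genes passed (limma voom, adjusted p from 0.874 to 0.996), where 8 of 3614 genes tested did (0.221%). At an unadjusted p under 0.05, Apom was the 1 member, against 184 genes in all (5.09%). Of the 10, 7 had a log2 fold change above 0 and their median was 0.15, against -0.08 over all genes tested. With HFD mouse 1 left out, Apom alone among them passed, where 124 of 3670 genes did (3.38%), and the median was 0.18 against 0.00 over all genes. At an unadjusted p under 0.05 they were 4 in this 4-mouse fit, Apom, Apoa2, Apob and Apoc4, against 668 genes in all (18.2%). The diet groups did not overlap for 4 of the 10 genes, Apob and Apoc1 being higher and Apom and Lipc lower in all HFD mice, where 23.2% of the tested genes had such separation (8.88% with HFD higher and 14.3% with HFD lower). Without HFD mouse 1 this held for 7, with Mttp, Apoc4 and Apoa2 also higher, where the background was 40.8% (20.6% higher and 20.2% lower). In the values that the authors smoothed with MAGIC, 7 of the 10 passed, as did 2556 of 3614 genes (70.7%).

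Among the proteins of VLDL assembly, Apob, the scaffold of the particle, lies at chr12:7977648-8016835 with 29 exons (GENCODE, build GRCm38, as for all genes below). It stood at 423 CPM in LFD mouse 1 and 388 CPM in LFD mouse 2, and at 788, 562 and 667 CPM in HFD mice 1, 2 and 3. All HFD mice lay above both LFD mice, the value of HFD mouse 1 resting on 22 UMIs, of which 14 came from 1 barcode. The means were 406 ± 24.5 CPM (SD, n = 2) and 672 ± 113 CPM (SD, n = 3), and the log2 fold change was 0.57 (SE 0.35, limma adjusted p = 0.988), higher in 3 of 3 HFD mice. Leaving out HFD mouse 1 gave 0.52 (SE 0.18, limma adjusted p = 0.131), which did not pass.

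Mttp, the transfer protein that lipidates apolipoprotein B, spans chr3:138089854-138144968 on the minus strand, where Trmt10a overlaps it on the other strand. Its level was 103 and 110.0 CPM in the LFD mice and came to 35.8, 134 and 119.7 CPM under HFD in mouse order, the first of these from a single UMI. The groups overlapped, and the log2 fold change was 0.03 (95% interval -1.09 to 1.15). With HFD mouse 1 left out it was 0.32 (SE 0.25, limma adjusted p = 0.549). There were 4.11 and 3.53 Apob UMIs for each Mttp UMI in the LFD mice, and 4.19 and 5.57 in HFD mice 2 and 3. In HFD mouse 1 the ratio was 22.0, on its single Mttp UMI.

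Among the exchangeable apolipoproteins, Apoe, Apoc1 and Apoc4 lie with Apoc2 in a cluster of 4 genes within 27610 bases of chromosome 7, all on the minus strand (Apoe at chr7:19696109-19699188, Apoc1 at chr7:19689481-19692660 and Apoc4 at chr7:19678083-19681479). Apoe, the ligand by which remnants bind hepatic receptors, stood at 24271 and 22006 CPM in the LFD mice and at 18098, 19395 and 29023 CPM in HFD mice 1, 2 and 3. HFD mouse 3 was the highest of the 5 and the other HFD mice the lowest, so the groups overlapped. Its log2 fold change was -0.18 (SE 0.19) with all mice and -0.06 (SE 0.14) without HFD mouse 1. Macrophages also make Apoe, and the 11 macrophage markers in the table summed to 0 to 40.3 CPM. The highest single values were Marco at 35.8 CPM in HFD mouse 1, from 1 UMI, and Cd5l at 10.7 CPM in HFD mouse 2. Clec4f was at 4.48 CPM or less and Lyz2 at 0 in every mouse. The part of macrophage RNA in the Apoe level was not tested.

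Apoc1, a small apolipoprotein that restrains lipoprotein clearance and lipase action, stood at 23526 and 22695 CPM in the LFD mice and at 27775, 25871 and 29143 CPM in HFD mice 1, 2 and 3. Every HFD mouse lay above both LFD mice, by a small margin. The means were 23111 ± 587 CPM (SD, n = 2) and 27596 ± 1643 CPM (SD, n = 3). The log2 fold change was 0.17, with an SE of 0.16 and a limma adjusted p of 0.988, and 3 of 3 HFD mice were higher. In the 4-mouse fit it was 0.19 (SE 0.11), with a limma adjusted p of 0.375. The ratio of Apoe to Apoc1 UMIs was 1.03 and 0.97 in the LFD mice, and 0.65, 0.75 and 1.00 in HFD mice 1, 2 and 3.

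Apoc4, a minor VLDL apolipoprotein, was far less abundant than Apoe and Apoc1, at 0.10 to 0.16 UMIs for each Apoc1 UMI over the 5 mice. It stood at 3171 and 3304 CPM in the LFD mice and at 2795, 4045 and 4122 CPM in HFD mice 1, 2 and 3. HFD mouse 1 was the lowest and the other HFD mice the highest. The log2 fold change was 0.20 (SE 0.25), and 0.30 (SE 0.14, limma adjusted p = 0.251) without HFD mouse 1. A readthrough gene model, Gm44805, overlaps Apoc4 and Apoc2, and the treatment of reads they share is not stated.

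Apoh, known as beta-2-glycoprotein I, a plasma protein that binds anionic phospholipid and travels partly on lipoproteins, stood at 2383 and 1987 CPM in the LFD mice and at 4086, 2712 and 2189 CPM in HFD mice 1, 2 and 3. The groups overlapped, since HFD mouse 3 lay between the LFD mice. In HFD mouse 1, 75 of the 114 UMIs came from 1 barcode. Its log2 fold change was 0.29 (SE 0.28), and 0.17 (SE 0.17) without that mouse. Apoh lies at chr11:108343354-108414396 on the plus strand, Prkca overlaps it on the other strand, and the use of strand in counting is not stated.

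Among the HDL proteins, Apoa2, the second most abundant protein of HDL, lies at chr1:171225054-171226379. It stood at 39379 and 37716 CPM in the LFD mice and at 25947, 47771 and 54216 CPM in HFD mice 1, 2 and 3. HFD mouse 1 was the lowest of the 5 mice and the other HFD mice were the highest. Over 5 mice the log2 fold change was 0.12 (SE 0.23, limma adjusted p = 0.991). In the 4 mice without HFD mouse 1 the means were 38547 ± 1176 and 50993 ± 4557 CPM (SD, n = 2 each). The log2 fold change was then 0.35, with an SE of 0.11 and a limma adjusted p of 0.0963, which did not pass although 2 of 2 HFD mice were higher.

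Apom, the HDL apolipoprotein that carries sphingosine 1-phosphate, lies at chr17:35128997-35132050 on the minus strand. It stood at 1020.4 CPM (95% Poisson interval 929 to 1119) in LFD mouse 1 and 1113 CPM (999 to 1237) in LFD mouse 2. It stood at 71.7 CPM (8.68 to 259) in HFD mouse 1, 673 CPM (612 to 739) in HFD mouse 2 and 445 CPM (290 to 652) in HFD mouse 3. All HFD mice lay below both LFD mice, and no interval of one diet reached into the other. The value of HFD mouse 1 rested on 2 UMIs, while the other mice gave 26 to 456. With all mice the log2 fold change was -1.42 (SE 0.54), which did not pass (limma adjusted p = 0.874). Without HFD mouse 1, Apom fell from 1067 ± 65.5 to 559 ± 161 CPM (SD, n = 2 each), by 0.83 on the log2 scale (SE 0.20, limma adjusted p = 0.0258, lower in 2 of 2 HFD mice). Leaving out any of the other mice gave no call.

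Lcat, the enzyme that esterifies HDL cholesterol, stood at 262 and 191 CPM in the LFD mice and at 1254, 212 and 239 CPM in HFD mice 1, 2 and 3. HFD mouse 1 was far above the rest, with 24 of its 35 UMIs in 1 barcode of 369 detected genes, and the other 4 mice overlapped. The log2 fold change was 0.42 (SE 0.58), and -0.07 (SE 0.23) without that mouse. Lipc, hepatic lipase, is the longest gene of the set at 154099 bases. It stood at 177 and 146 CPM in the LFD mice and at 143, 116 and 119.7 CPM in HFD mice 1, 2 and 3. The HFD mice lay below both LFD mice, HFD mouse 1 narrowly so and on 4 UMIs, and the log2 fold change was -0.41 (SE 0.45, limma adjusted p = 0.988, lower in 3 of 3 HFD mice). In the 4-mouse fit Lipc had -0.47 (SE 0.25, limma adjusted p = 0.332). Lcat (chr8:105939551-105943382) and Lipc (chr9:70798128-70952226), both on the minus strand, each overlap noncoding gene models on the other strand.

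**Figure D2:**
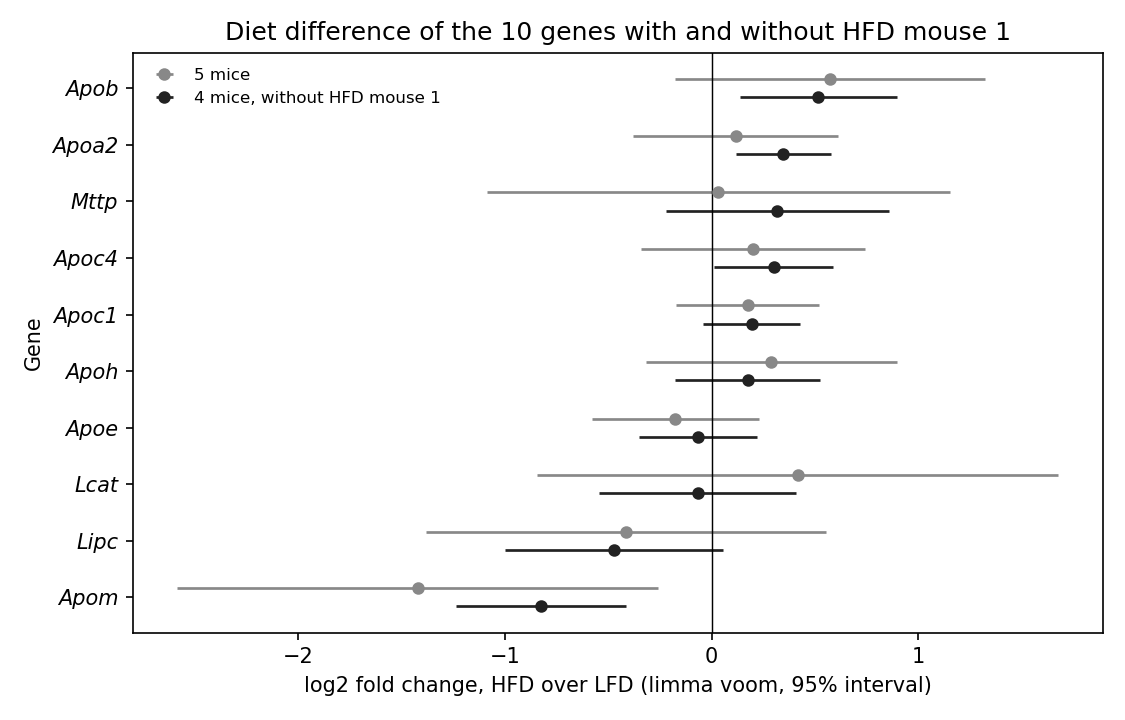
Log2 fold change of HFD over LFD for each gene with its 95% interval from limma voom, in grey with 5 mice and in black without HFD mouse 1. With 5 mice Apom (-1.42) is the 1 gene whose interval lies off 0, and without HFD mouse 1 the intervals of Apom (-0.83), Apoa2 (0.35), Apob (0.52) and Apoc4 (0.30) do so, of which Apom passed the adjusted test.

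The share of cells with at least 1 UMI was compared after each cell was thinned to 1728 UMIs, which kept 114, 74, 5, 134 and 14 cells of LFD mice 1 and 2 and HFD mice 1, 2 and 3. With 2 against 3 mice the exact permutation test cannot give a two-sided p below 0.2, and the table holds no other cell type in which a background share could be read. Apoe, Apoc1 and Apoa2 were found in 100% of the thinned cells in each mouse, and Apoc4 in 98.6% to 100% outside HFD mouse 1 (80.0%). At this depth the shares of these 4 genes are at or near their ceiling. Apoh was found in 97.4% and 97.3% of cells in the LFD mice, and in 60.0%, 97.8% and 92.9% in HFD mice 1, 2 and 3. Apom was found in 78.9% and 79.7% of cells in the LFD mice, and in 20.0%, 68.7% and 42.9% in HFD mice 1, 2 and 3. Every HFD mouse lay below both LFD mice, a mean difference of -35.5 percentage points (two-sided exact permutation p = 0.2), where 16.2% of the 3614 tested genes had shares lower in all HFD mice. The difference was -23.6 percentage points without HFD mouse 1. Before thinning the shares were 87.9% and 86.9% against 40.0%, 70.2% and 72.0%, in the same order by diet.

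Apob was found in 47.4% and 43.2% of thinned cells in the LFD mice and in 60.0%, 55.2% and 35.7% in the HFD mice. Its groups thus overlapped at this depth while its CPM did not, through HFD mouse 3 with 5 of 14 cells positive. At the lower thinning depth the Apob shares were 39.5% and 36.6% against 40.0%, 42.4% and 55.0%. For 2 or more UMIs they were 11.4% and 4.05% against 40.0%, 23.1% and 14.3%. In both settings all HFD mice were higher, HFD mouse 1 narrowly so at the lower depth. The unthinned shares of Apob, 69.7% and 69.0% against 60.0%, 67.8% and 64.0%, lay in the opposite order. Median depths were 2734 and 3075.5 UMIs in the LFD mice and 6598, 2181.5 and 1863 UMIs in HFD mice 1, 2 and 3. The part of depth in this order was not tested. Lcat was found in 28.1% and 28.4% of thinned LFD cells and in 31.3% and 35.7% of those of HFD mice 2 and 3, with all 5 barcodes of HFD mouse 1 positive. The HFD shares were thus higher, as for 5.64% of the tested genes, but not before thinning (48.5% and 48.8% against 100%, 44.2% and 48.0%) or at the lower thinning depth (31.0% and 25.6% against 60.0%, 29.1% and 45.0%). Lipc was found in 27.2% and 17.6% against 20.0%, 14.2% and 21.4%. Mttp was found in 12.3% and 20.3% against 0 of 5 cells, 14.9% and 14.3%. At the lower thinning depth its shares were 9.30% and 15.9% against 20.0%, 16.9% and 20.0%, higher in all HFD mice. With HFD mouse 1 left out, the thinned differences of HFD from LFD were 0.16 percentage points for Apob, 5.30 for Lcat, -4.58 for Lipc, -1.67 for Mttp, -2.02 for Apoh and 0.30 for Apoc4.

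**Figure D3:**
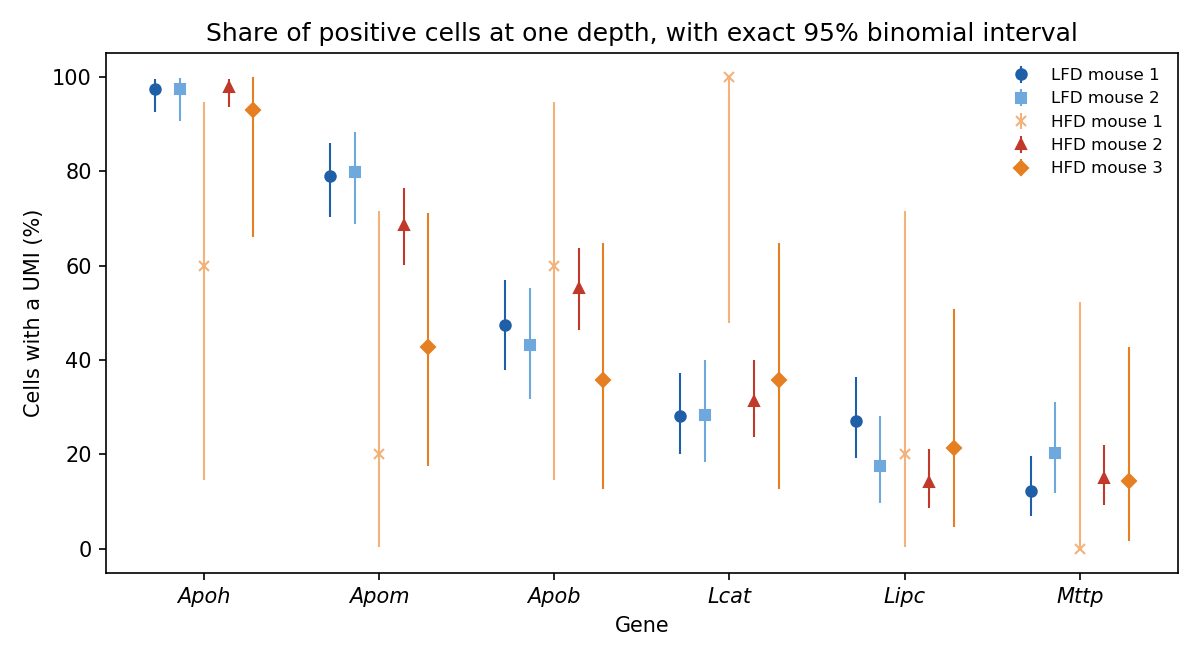
Share of cells with at least 1 UMI (%) in each mouse after thinning to 1728 UMIs, for the 6 genes not found in nearly every cell of each mouse, with exact binomial 95% intervals. Apom lies near 79% in both LFD mice and at 68.7% or less in the HFD mice, and the intervals of HFD mice 1 and 3 (5 and 14 cells) are wide.

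Each cell was placed along the lobule, the repeating unit of liver that runs from the portal vein to the central vein, by a score of 20 pericentral and 20 periportal genes that holds none of the 10. The cells of a mouse were divided at its median. Cyp2e1, a pericentral enzyme, is itself a gene of the score, so its difference between sides follows from the division and is no check of it. In the 4 mice with 25 or more cells it was 1830 to 3071 CPM on the pericentral side and 171 to 586 CPM on the periportal side. Glul, another pericentral gene of the score, stood at 0 CPM on both sides of HFD mouse 3. In HFD mouse 1 the pericentral and periportal sides held 3 and 2 barcodes. None of the 10 genes passed the test between sides with 5 mice (7 of 2517 genes did, 0.278%) or without HFD mouse 1 (197 of 2667, 7.39%). Unadjusted p-values were under 0.05 for no member with 5 mice (201 genes in all, 7.99%). In the 4 mice without HFD mouse 1 they were so for 3, namely Apob, Apom and Apoc1, against 446 genes (16.7%).

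Apob was higher on the periportal side. It stood at 473 CPM periportal and 352 CPM pericentral in LFD mouse 1, and at 434 and 328 CPM in LFD mouse 2. In HFD mice 1, 2 and 3 the periportal and pericentral values were 1449.8 and 625 CPM, 566 and 558 CPM, and 879 and 481 CPM. Those of HFD mouse 1 rested on 8 UMIs in 2 barcodes and on 14 UMIs from 1 barcode. The periportal side was thus higher in 5 of 5 mice, by little in HFD mouse 2, and the log2 difference of pericentral over periportal was -0.44 (SE 0.23, limma adjusted p = 0.681). Without HFD mouse 1 it was -0.42 (SE 0.16, limma adjusted p = 0.101). In 3 equal bins of cells along the score, Apob was found in 86.4%, 77.3% and 45.5% of unthinned cells from the portal to the central end in LFD mouse 1. On the periportal and pericentral sides of that mouse it was found in 81.8% and 57.6%, and periportal cells were also deeper (median 3541 UMIs against 2068). At one depth the shares of these portal and central sides were 46.8% and 48.1%. They were 47.5% and 38.2% in LFD mouse 2, 53.8% and 56.5% in HFD mouse 2, and 42.9% and 28.6% in HFD mouse 3. In HFD mouse 1 they were 100% of 2 barcodes and 33.3% of 3. The thinned shares thus went both ways.

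Apoc1 ran the other way. It stood at 21662 CPM periportal and 26176 CPM pericentral in LFD mouse 1, at 20651 and 25366 CPM in LFD mouse 2, at 18847 and 29975 CPM in HFD mouse 1, and at 22202 and 28929 CPM in HFD mouse 2. HFD mouse 3 was the exception, with 29507 CPM periportal and 28825 CPM pericentral, so the pericentral side was higher in 4 of 5 mice. The log2 difference was 0.36 (SE 0.23, limma adjusted p = 0.767), and 0.15 (SE 0.07, limma adjusted p = 0.193) without HFD mouse 1.

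Apom had a periportal lean in HFD mouse 2, with 894 against 488 CPM, and a smaller one in LFD mouse 2, with 1171 against 1037 CPM. In LFD mouse 1 (995 and 1057 CPM) and HFD mouse 3 (293 and 578 CPM) the pericentral side was the higher one. The log2 difference was -0.17 (SE 0.29), and -0.38 (SE 0.14, limma adjusted p = 0.106) without HFD mouse 1, with 2 of these 4 mice each way. Apoa2 was higher on the pericentral side in 5 of 5 mice, as in HFD mouse 2 (51918 against 42796 CPM), but its log2 difference, taken after TMM scaling of the sides, was 0.24 (SE 0.22) and was 0.01 (SE 0.06) without HFD mouse 1. Apoe was higher pericentrally in 4 of 5 mice, with a log2 difference of 0.02 (SE 0.17), and 0.04 (SE 0.07) over the 4 larger libraries. Lcat was higher pericentrally in those 4, with a log2 difference of 0.21 (SE 0.19, limma adjusted p = 0.660), but over 5 mice the difference was -0.23 (SE 0.35). Mttp, Apoc4, Apoh and Lipc had log2 differences from -0.08 to 0.24 with 5 mice. In the 4 larger libraries Mttp had -0.02 (SE 0.25), Apoc4 -0.04 (SE 0.10), Apoh -0.12 (SE 0.11) and Lipc 0.15 (SE 0.22).

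**Figure D4:**
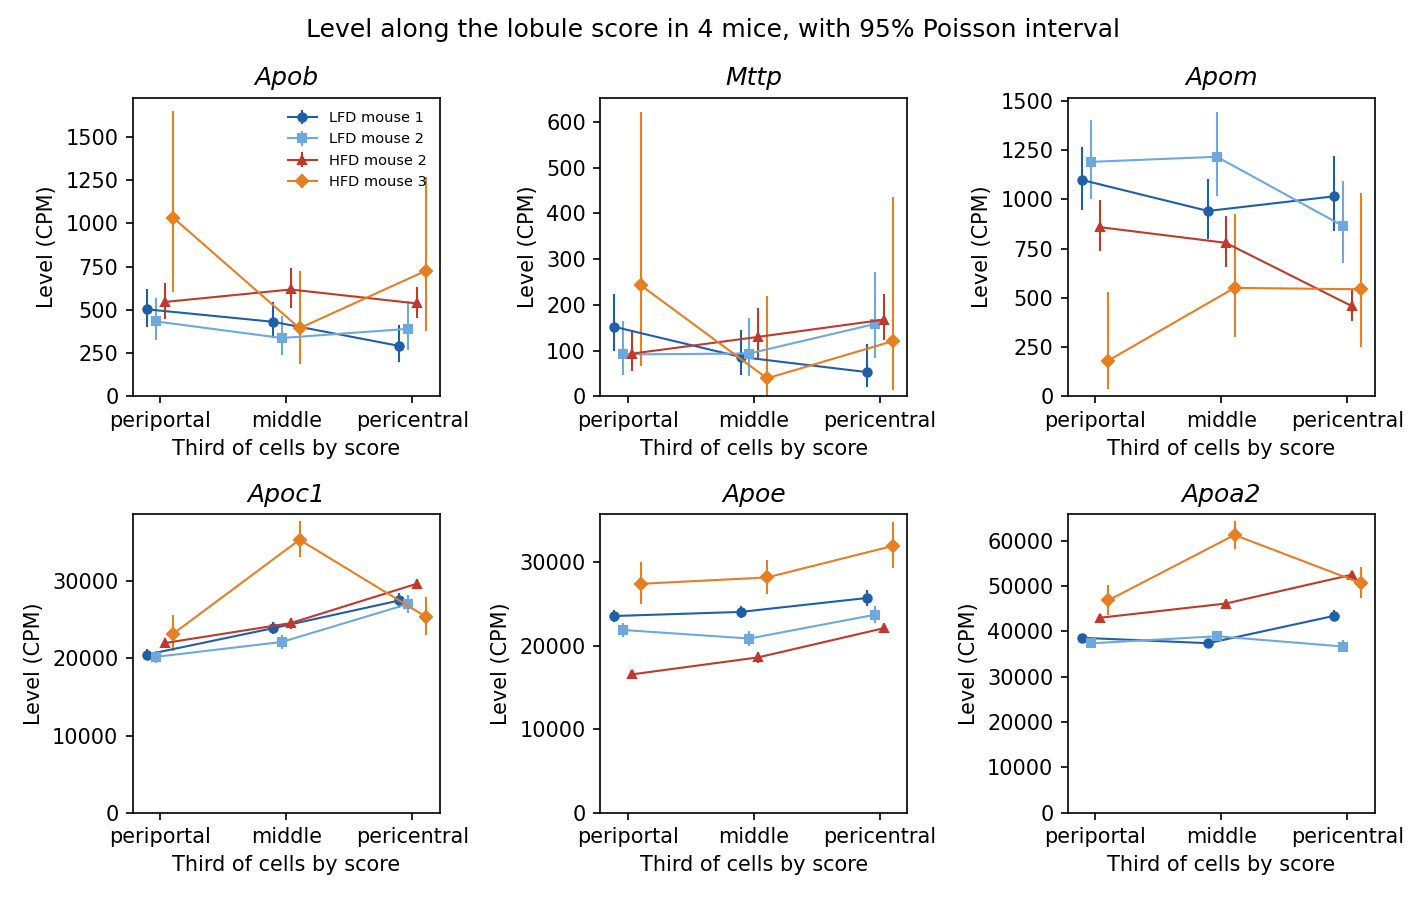
Level in CPM of 6 of the genes in 3 equal bins of cells from the periportal to the pericentral end of the score, in the 4 mice other than HFD mouse 1, with exact 95% Poisson intervals. Apoc1 goes from 20503 to 27521 CPM in LFD mouse 1, from 20206 to 27061 CPM in LFD mouse 2 and from 21997 to 29695 CPM in HFD mouse 2. In HFD mouse 3 Apoc1 is highest in the middle bin, at 23222, 35402 and 25430 CPM. Apob has no shared shape across the mice.

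Whether the side difference itself differed between diets was tested with an interaction term. None of the 10 genes passed (log2 from -0.92 to 0.71, lowest unadjusted p = 0.234 by limma), and 0 of 2517 genes did (0.0%), with 38 at an unadjusted p under 0.05 (1.51%). With HFD mouse 1 left out the values ran from -0.61 for Apom to 0.40 for Mttp (lowest limma adjusted p = 0.906), where 2 of 2667 genes passed (0.075%) and 142 had an unadjusted p under 0.05 (5.32%). No member had one in either fit.

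Cells also differed in level within a mouse. At 1728 UMIs a cell of LFD mouse 1 held a median of 68.5 Apoa2 UMIs, with a 10th to 90th percentile range of 52.0 to 87.7, and cells of HFD mouse 2 held a median of 80.0, with a range of 55.3 to 106.0. The ratio of variance to mean, which is 1 for counting noise, was 3.71, 2.88 and 5.07 for Apoa2 in LFD mice 1 and 2 and HFD mouse 2, and 2.88, 2.29 and 4.62 for Apoc1. Apoe followed with 1.98, 1.56 and 3.10. HFD mouse 2 had the widest spread for each of these 3 genes. The other 7 genes had ratios from 0.80 to 1.35, near that of counting noise, and no test of this was made. For a given relative spread between cells this ratio rises with the mean count. Mean counts per cell were 0.13 to 6.89 UMIs for these 7 genes and 33.6 to 81.0 UMIs for Apoa2, Apoc1 and Apoe. The ratios therefore do not tell whether the 7 genes varied less between cells.

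Across thinned cells, Apoc4 and Apoa2 had the highest mean correlation of the 45 pairs among the 10 genes (Spearman 0.37, 0.26 and 0.38 over 114, 74 and 134 cells of LFD mice 1 and 2 and HFD mouse 2), though they lie on chromosomes 7 and 1. The neighbours Apoe and Apoc1 had 0.17, -0.03 and 0.26. Apob and Apoc1, whose side differences had opposite signs but did not pass, had -0.29, -0.16 and -0.11. These are descriptions of cells that share a library. Among 974 genes detected widely enough, and over the 132, 84 and 208 unthinned cells of these 3 mice, the closest to Apoa2 were Ttr (mean Spearman 0.56), Fabp1 (0.51) and Rbp4 (0.45), all abundant hepatocyte genes. The closest to Apoc1 were Mup17 (0.43), Rgn (0.42) and Cyp2c29 (0.39), the last 2 of which are pericentral genes of the lobule score. The closest to Apoc4 was Apoa2 (0.32) and the closest to Apom was Ttr (0.27). The closest to Apoe was Sardh (0.29). For Apob, whose counts are sparse, and for Apoh no gene exceeded 0.21, and none is named.

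The wider lipoprotein pathway was read from a list of 65 other genes, of which 64 were in the table and 49 could be tested by diet. Of these, 1 rose and none fell, where 0.221% of all genes passed, and the median log2 fold change was -0.02 against -0.08 over all genes tested. The gene that rose was Apoa4, an apolipoprotein of triglyceride-rich particles, at 47.0 and 80.9 CPM in the LFD mice and at 717, 394 and 650 CPM in the HFD mice (log2 fold change 2.95, SE 0.48, limma adjusted p = 0.0275, higher in 3 of 3). With HFD mouse 1 left out, 2 of 50 passed (3.38% of all genes did): Apoa4 rose (2.86, SE 0.29) and Apoa1, the main protein of HDL, fell, by 0.79 on the log2 scale (SE 0.15, limma adjusted p = 0.0071). Apoa1 stood at 13317 and 14325 CPM in the LFD mice and at 14658, 9094 and 6892 CPM in the HFD mice. Its HDL partner Apoa2 was higher in HFD mice 2 and 3, as given above.

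The other groups of the list had no call by diet with 5 mice. Over all genes tested, 43.7% were above 0 with 5 mice and 49.7% without HFD mouse 1. Of 18 secretion genes tested, 7 were above 0 with 5 mice (median -0.25) and 10 without HFD mouse 1 (median 0.04). The most abundant were the chaperones P4hb (the partner subunit of Mttp) and Hspa5 and the lipase Aadac, which ranged over the mice from 658 to 1756 CPM, 394 to 1317 CPM and 430.1 to 781 CPM. Of 5 remodelling genes tested, among them Gpld1 (79.2 to 114 CPM), a phospholipase carried on HDL, 2 were above 0 (median -0.23). Of 5 receptor genes, led by Lrp1 (87.4 to 143 CPM), 3 were above 0 (median 0.15). Of 9 regulators, 6 were above 0 (median 0.11), and Srebf1, which drives fatty acid synthesis, was 71.6 and 119.7 CPM in the LFD mice and 108, 123 and 393 CPM in the HFD mice. With HFD mouse 1 left out, 2 of 5 remodelling genes (median -0.15), 5 of 6 receptor genes (0.15) and 6 of 9 regulators (0.23) were above 0.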

How the data were processed

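Drop-seq libraries of hepatocytes from 5 mice were analysed: LFD 1 and 2, HFD 1, 2 and 3. Alignment used STAR 2.6.0a against mm10, per the submitters' processing notes. Not given in the sources used here: filters on cells, annotation, strand use, counting of shared reads and doublet removal. No doublet caller was run. The authors deposited a table of natural log values (ln of 1 + UMIs scaled to 10000 per cell, from the values themselves) and a second table of natural log values smoothed with MAGIC, which shares signal between similar cells. No column was left out (0 without a sample).

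The unsmoothed values gave back whole UMIs within 0.001 for 100% of entries. UMIs were summed per mouse, or per mouse and side of the lobule score, and tested with limma 3.58.1 (voom, R 4.3.3) with trimmed-mean (TMM) factors taken over the genes past the filter, which asked for 15 UMIs in total and, in 2 mice, for the CPM that 10 UMIs give in the median library. P-values were adjusted by Benjamini-Hochberg over all genes tested, with a threshold of 0.05. The lobule fit had the mouse as a block. Tests ran as planned. Their code was checked on simulated counts with the same spread for all genes and mice, which is no measure of power in these data. Shares of positive cells used exact permutation tests (Python 3.11.15, SciPy 1.17.1, NumPy 2.4.6), and intervals are exact Poisson or Clopper-Pearson at 95%, covering counting error only. A total of 3 UMIs stands for 4.57 CPM in the deepest library (HFD mouse 2) and for 108 CPM in the shallowest (HFD mouse 1). Pooling cells cannot tell fewer expressing cells from less RNA per cell. The shares do not settle this for genes with few UMIs per cell, because there the share also falls with the mean count.

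The 10 genes and the lists were chosen with earlier results of these data known. Of the wider list, genes past the threshold are named, or else the most abundant of a group, and 1 gene of the list is not reported here. For likeness, the 3 genes closest across cells by Spearman correlation were taken for each of the 7 members found widely enough, and those with a clear correlation are named. Gene positions are from GENCODE vM21 on GRCm38. Alternatives covered normalization, filters, the test, smoothing, depth, cells, the lobule score and each mouse left out.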

Additional observations from a re-analysis of the deposited data

How the results depend on the processing

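No setting other than the smoothed values and leaving out HFD mouse 1 gave a diet call among the 10 genes, and no setting gave one on the lobule axis or for its interaction with diet. Apob, Apom and Lipc kept the sign of their diet difference in 18 of 18 alternatives, and Apob and Apoc1 that of their lobule difference in 13 of 13. The cause of the changes below was not tested.

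By diet, 8 genes of all those tested passed. There were 2 with TMM factors over all genes (chosen after seeing the data), 2 with no filter on low values, 2 without the 5% of cells with most UMIs, 2 without cells holding UMIs of other cell types, 0 with limma-trend and 14 with the mean of the deposited log values. Leaving out 1 mouse gave 0 to 124, namely 124 without HFD mouse 1 and 0 without each of the other 4. The smoothed values gave 2556 of 3614 (70.7%), 7 of the 10 genes among them. On the scale of those values the differences of the 7 ran from -0.067 for Apom to 0.027 for Apoc4. Among the 10, leaving out 1 mouse gave 0 to 1.

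The same replicate numbers share nothing further in the labels, and deviations of same-numbered mice correlated at 0.03 and 0.06 over genes. The replicate block by diet gave 29 calls in all and none of the 10. On the lobule axis, with the mouse as block in the reported fit, 7 genes passed, and there were 0 with no replicate block.

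The lobule count was 20 with total UMIs only, 4 with TMM factors over all genes, 17 with no filter, 27 with the landmark score, 11 with cells thinned to 1 depth (Mttp could not be tested there) and 0 with limma-trend. Leaving out 1 mouse gave 0 to 197: 197 without HFD mouse 1, 0 without LFD mouse 2 and 1 without each other mouse. The interaction count of 0 became 1 with no filter, 1 with the landmark score and 2 without HFD mouse 1, so 0 to 2 over the mice left out.

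Log2 diet differences that changed sign did not pass in either fit, except Lcat, which passed in the smoothed values (adjusted p = 0.0361). Mttp was -0.18 with TMM over all genes, -0.12 with no filter, -0.37 with limma-trend, -0.068 with mean log values, -0.19 with the replicate block, -0.50 without the cells with most UMIs and -0.23 when thinned. Over the mice left out, Mttp ran from -0.38 (HFD mouse 3) to 0.32 (HFD mouse 1), Apoe from -0.27 (HFD mouse 3) to 0.10 (HFD mouse 2) and Lcat from -0.068 (HFD mouse 1) to 1.34 (HFD mouse 2). Without cells holding UMIs of other cell types, which leaves 1 barcode of HFD mouse 1, Apoc1 was -1.01, Apoc4 -0.97, Apoa2 -0.60 and Apoh -0.15. With mean log values Apoc4 was -0.23, Apoa2 -0.0095 and Apoh -0.21. Apoa2 was -0.030 with TMM over all genes, -0.0079 with limma-trend and -0.036 when thinned. In the smoothed values Apoc1 was -0.0038 and Lcat -0.013.

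On the lobule axis, Mttp was 0.020 with total UMIs and 0.37 with limma-trend. Apoe was -0.015 with the landmark score, -0.069 between outer bins and -0.050 when thinned. With the landmark score Apoc4 was -0.12, Apoa2 -0.054, Apoh -0.15 and Lcat 0.41. Between outer bins Apoc4 was -0.30, Apoh -0.21 and Lipc -0.033. Apom was 0.027 with no replicate block and 0.60 with limma-trend. Over the mice left out, Mttp ran from -0.24 (LFD mouse 2) to 0.14 (LFD mouse 1), Apoe from -0.069 (HFD mouse 2) to 0.037 (HFD mouse 1), Apoc4 from -0.036 (HFD mouse 1) to 0.46 (HFD mouse 3), Apoh from -0.12 (HFD mouse 1) to 0.30 (HFD mouse 3), Apom from -0.38 (HFD mouse 1) to 0.068 (HFD mouse 2) and Lcat from -0.41 (LFD mouse 2) to 0.21 (HFD mouse 1). In percentage points of positive cells, Apob was -5.44 before thinning, Mttp 6.38 at the lower thinning depth and Lipc 0.20 for 2 or more UMIs. Over the mice left out, Apoc4 ran from -9.70 (HFD mouse 3) to 0.30 (HFD mouse 1) and Lipc from -8.66 (LFD mouse 2) to 0.97 (LFD mouse 1).

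The median log2 diet difference over all genes moved from -0.08 to -0.23 with TMM over all genes, against which the 10 genes had a median of 0.01. Depth limits HFD mouse 1 (5 cells) and HFD mouse 3 (25 cells), where 1 UMI stands for 35.8 and 17.1 CPM.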

Other observations

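On the lobule axis without HFD mouse 1, where 7.39% of all genes tested passed (limma voom), genes among the 42 tested of the wider lipoprotein list did so on both sides, named here after their values were seen. Toward the portal side lay Apoc2, the activator of lipoprotein lipase (log2 difference -0.47, SE 0.11, adjusted p = 0.0032), Apoc3, its inhibitor (-0.29, SE 0.09, adjusted p = 0.0302), Apoa1 (-0.24, SE 0.08, adjusted p = 0.0339), the chaperones Hspa5 (-0.58, SE 0.13) and Pdia3 (-0.69, SE 0.19), and Aadac, Apof, Clu and Serpina1a. Toward the central side lay Pon1, an HDL-borne enzyme (0.83, SE 0.15), and Ces1d, a lipid droplet hydrolase (0.65, SE 0.16). With 5 mice none of the list passed. Apoc2 then had -0.035 (SE 0.35) and Apoa1 had the opposite sign, at 0.10 (SE 0.27), while the other genes named kept their sign. Apoc2, next to Apoc4 in the cluster, thus lay portal-ward in the fit without HFD mouse 1, where Apoc4 had -0.04 (SE 0.10).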
